A study of Gallus gallus with 9 samples.

Results

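The genes described here are 41 genes of the amino acid response and of cytoplasmic tRNA charging: 5 transcription factors (ATF4, ATF3, ATF5, CEBPB and CEBPG), 4 stress effectors, 7 enzymes of serine and folate metabolism, 5 other enzymes of amino acid metabolism, 5 amino acid transporters and 15 aminoacyl-tRNA synthetases. They are a named list drawn up with earlier results of these data known, and each was represented by the brightest probe set whose single annotated symbol was that gene. A probe set is the group of short oligonucleotides by which an Affymetrix array measures the RNA of a gene. Of the 41 genes, 33 had such a probe set, out of 13009 genes with a single-symbol probe set in the whole series, and 30 were bright enough to be tested. No probe set was used for ATF5, TRIB3, SESN2, SHMT2, PYCR1, SLC3A2, MARS1 and VARS1. ATF3, DDIT4 and SLC7A11 had a probe set with a mean log2 intensity below the median of all probe sets and were not tested.

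The cells were cultured chicken primordial germ cells (PGCs), the embryonic precursors of sperm and egg, which proliferate in vitro in the presence of basic fibroblast growth factor (bFGF). Blood cells were drawn from Korean Oge embryos of embryonic day 2.5 (Hamburger and Hamilton stages 14 to 15), pooled without regard to sex, and grown without feeder cells in a medium that in all groups held fetal bovine serum, chicken serum, GlutaMAX and nonessential amino acids. Total RNA was taken from PGCs in 10 ng/ml bFGF before withdrawal (RAW, 0 h), from PGCs kept without bFGF for 24 h (-bFGF, 24 h) and from PGCs given bFGF again for another 24 h (+bFGF, 48 h), with 3 arrays in each group and 9 in all. Since each step of 24 h changed both bFGF and the time in culture, these cannot be told apart, and since RNA was taken from whole cultures, fewer cells of a type and less RNA per cell cannot be told apart either. The methods state that the experiments were repeated in triplicate and that RNA came from different treated samples, but no label ties an array to a culture, so the p-values rest on array-to-array spread, part of which may be technical.

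In vertebrate cells, a shortage of an amino acid leaves tRNAs uncharged, which activates the kinase GCN2 (EIF2AK4). GCN2 and the other eIF2 kinases phosphorylate the translation factor eIF2, which slows protein synthesis in general while the ATF4 mRNA is translated more. ATF4 pairs with C/EBP proteins and switches on genes for serine and asparagine synthesis, folate-borne carbon units, amino acid uptake and tRNA charging. Growth factor signalling through mTORC1 also raises ATF4 in mammalian cells, where it supplies proliferating cells with serine, glycine and purine precursors. Because much of the control of ATF4 lies in translation, an array reports only the mRNA side of it.

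Values are MAS5 intensities on a linear scale as deposited. Changes are differences of mean log2 intensity with their standard error (SE), and adjusted p-values come from limma with Benjamini-Hochberg adjustment over 19220 tested probe sets. A gene is said to have risen or fallen where its adjusted p was below 0.05. Withdrawal compares -bFGF with RAW, replacement compares +bFGF with -bFGF, and the net change compares +bFGF with RAW. Any 2 of these comparisons share the arrays of 1 group, so the values of a gene in them are set side by side and are not separate evidence. Because oligonucleotides differ in how well they bind, the intensity of a gene is compared only with that of the same gene on other arrays.

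The array medians lay between 71.3 and 82.3, with no array far from its group on that measure. Of 10 germ cell markers 7 had a probe set and all 7 were tested, and the RNAs of DDX4 (the vasa homologue) and DAZL, which define germ cells, had mean intensities of 22161 and 39391 in RAW. The summed intensity of these 7 markers lay between 88100 and 91950 in RAW, between 75530 and 87070 in -bFGF and between 82260 and 88300 in +bFGF, so that all -bFGF arrays were below all RAW arrays. Among them DAZL (-0.27, adjusted p = 0.0342) and ITGB1 (-0.23, adjusted p = 0.0242) fell on withdrawal, and ITGA6 fell on replacement (-0.20, adjusted p = 0.0205) and in the net change (-0.22, adjusted p = 0.0216). By sign, 4 of the 7 were lower on withdrawal and 3 higher, with KIT at 0.12 (adjusted p = 0.209) and group means of 8300, 9040 and 9683. The sum weighs bright probe sets most, here DAZL and DDX4, whose means in -bFGF were 32806 and 19879. Of 10 fibroblast and mesenchyme markers all 10 had a probe set and 5 were tested: 4 of these (COL1A1, COL1A2, FN1 and PRRX1) fell on withdrawal, only COL1A2 rose on replacement, and only FN1 fell in the net change. COL3A1, the other tested marker, was not lower on withdrawal (0.06, adjusted p = 0.623). The mean of COL1A2 alone went from 2385 in RAW to 263 in -bFGF and 1865 in +bFGF, which weighs heavily in the sum of this list. The summed intensity of the 10 was between 7726 and 8870 in RAW, 5780 to 6098 in -bFGF and 6604 to 7663 in +bFGF, with TWIST1, TWIST2, LUM, DCN and POSTN among those below the median. Only 1 of 11 erythroid, 2 of 6 leukocyte, 2 of 4 thrombocyte and 1 of 5 endothelial markers were tested, so these lists were hardly covered. None of the tested ones passed the limma test in any comparison, with an unadjusted p below 0.05 for 1 leukocyte marker on withdrawal and 1 thrombocyte marker in the net change. Of all 19220 tested probe sets, 4826 on withdrawal and 3430 in the net change had such a p. The summed endothelial markers lay between 191.7 and 224.4 in RAW, 152.6 and 167.4 in -bFGF, and 155.3 and 173.4 in +bFGF. Of these, KDR, CDH5, TEK and TIE1 lay below the filter and near the background. PECAM1, the tested one, had means of 99.2, 101.9 and 92.8 and changed by 0.05 on withdrawal (adjusted p = 0.907). The log2 ratio of the 3' to the 5' probe sets of actin, a sign of RNA quality, was 0.62 to 0.73 in RAW, 0.70 to 0.78 in -bFGF and 0.33 to 0.59 in +bFGF, where replicate 3 (0.33) stood apart from replicates 1 and 2 (0.59 and 0.58). The same ratio of GAPDH was -0.07 to -0.05 in RAW, -0.18 to -0.14 in -bFGF and -0.16 to -0.08 in +bFGF. That of the elongation factor EF1a was 0.412 to 0.436 in RAW, 0.443 to 0.550 in -bFGF and 0.468 to 0.515 in +bFGF. The summed thrombocyte markers lay between 239.1 and 332.9 in RAW, 206.2 and 257.5 in -bFGF, and 191.3 and 231.2 in +bFGF. The germ cell, fibroblast and thrombocyte sums, the mostly untested endothelial sum, and the actin, GAPDH and EF1a ratios thus moved with the groups, though not all between every pair of groups. Their part in the results below was not tested, nor whether the sums reflect cell content or single genes.

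On withdrawal of bFGF 3 of the 30 tested genes fell, ATF4, CTH and SARS1, and none rose by limma. At an unadjusted p below 0.05, 7 genes were lower and 1 was higher, where 4826 of all 19220 tested probe sets passed in either direction. The criteria of the study's methods (a lower bound of the 90% interval of the fold above 1.2 and a difference of means over 50) called only CTH, with a fall. These criteria were applied here to MAS5 intensities with errors from the replicate arrays, where the methods used dChip on probe-level data. They called 710 falls and 601 rises over all 38439 probe sets, dim ones included, while the genes were counted among the 30 tested only. These totals are far above those the study reported for this comparison, so a call here is not a call of the study's own filter. The study itself listed CTH among its bFGF-regulated genes, under cell death, apoptosis and proliferation, without giving its change or the comparison. Across all tested probe sets 5.33% fell and 5.4% rose on withdrawal, so the 3 genes that fell (10%) stand beside a background of 5.33%. Counted by gene, with 1 brightest probe set each as for the 30, 5.99% fell and 6.83% rose. Brighter probe sets were called more often: with the filter at the 75th percentile 835 of 9610 fell, and 4 of the 27 genes kept. Only CTH fell when the array left out was replicate 2 or 3 of RAW, of -bFGF or of +bFGF. The median log2 change of the 30 genes was -0.02, against 0.02 over all tested probe sets. By sign, 18 genes were lower and 12 higher, beside 47.1% and 52.9% of all tested probe sets. In 8 genes every -bFGF array lay below every RAW array, and in 5 every -bFGF array lay above, where the same held for 14.2% and 17.3% of all tested probe sets.

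On replacement of bFGF 6 of the 30 genes rose, ATF4, CEBPB, CHAC1, PSAT1, MTHFD2 and CTH, and none fell by limma. At an unadjusted p below 0.05, 11 genes were higher and 1 was lower, where 3944 of all 19220 tested probe sets passed in either direction. Of the 30 genes, the methods' criteria called CHAC1, PSAT1 and MTHFD2, all higher, beside 547 falls and 483 rises over all 38439 probe sets. On replacement 3.37% of all tested probe sets rose and 3.42% fell, so the 6 genes (20%) stand beside a background of 3.37%. By gene, 4.02% rose and 4.21% fell. With the filter at the 75th percentile 521 of 9610 probe sets rose, and 6 of the 27 genes kept. The split of all calls depended on the scaling: 647 rose and 657 fell with the deposited values, and 806 rose and 476 fell with each array centred on its 75th percentile, under which 9 of the 30 genes rose, with ASNS, SARS1 and YARS1 added. Without -bFGF replicate 1 or +bFGF replicate 3, the same 6 genes rose, while CEBPB was lost without any other array. The median log2 change of the 30 genes was 0.09, against -0.02 over all tested probe sets. By sign, 25 genes were higher and 5 lower, beside 45.3% and 54.7% of all tested probe sets. No overlap between the +bFGF and -bFGF arrays was seen for 14 genes that were higher and 2 that were lower, beside 10.7% and 14.7% of all tested probe sets.

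At 48 h, 4 genes were above their RAW level in the net change, CEBPB, CHAC1, ASNS and SLC1A4, and none was below it by limma. The unadjusted p was below 0.05 for 8 higher genes and 1 lower gene, where 3430 of all 19220 tested probe sets passed in either direction. Of the 30 genes, the methods' criteria called CEBPB and CHAC1, both higher, beside 335 falls and 166 rises over all 38439 probe sets. Without +bFGF replicate 3 only CEBPB remained called by limma, and without RAW replicate 1 or RAW replicate 2 only CHAC1 did. The background of the net change was 1.14% of probe sets risen and 1.74% fallen, and the 4 genes make 13.3% of the 30. By gene, 1.62% rose and 1.85% fell. With the filter at the 75th percentile 252 of 9610 probe sets rose, and 6 of the 27 genes kept. The median log2 net change was 0.07, against -0.01 over all tested probe sets. By sign, 23 genes were higher and 7 lower, beside 48.8% and 51.2% of all tested probe sets. Arrays of +bFGF and RAW did not overlap for 9 higher genes and for 1 lower gene (CTH), beside 10.3% and 11.8% of all tested probe sets. Over the 3 comparisons 9 genes passed the test at least once and 21 never did, and only ATF4 and CTH passed it in both of the first 2, with a fall on withdrawal and a rise on replacement.

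**Figure D1:**
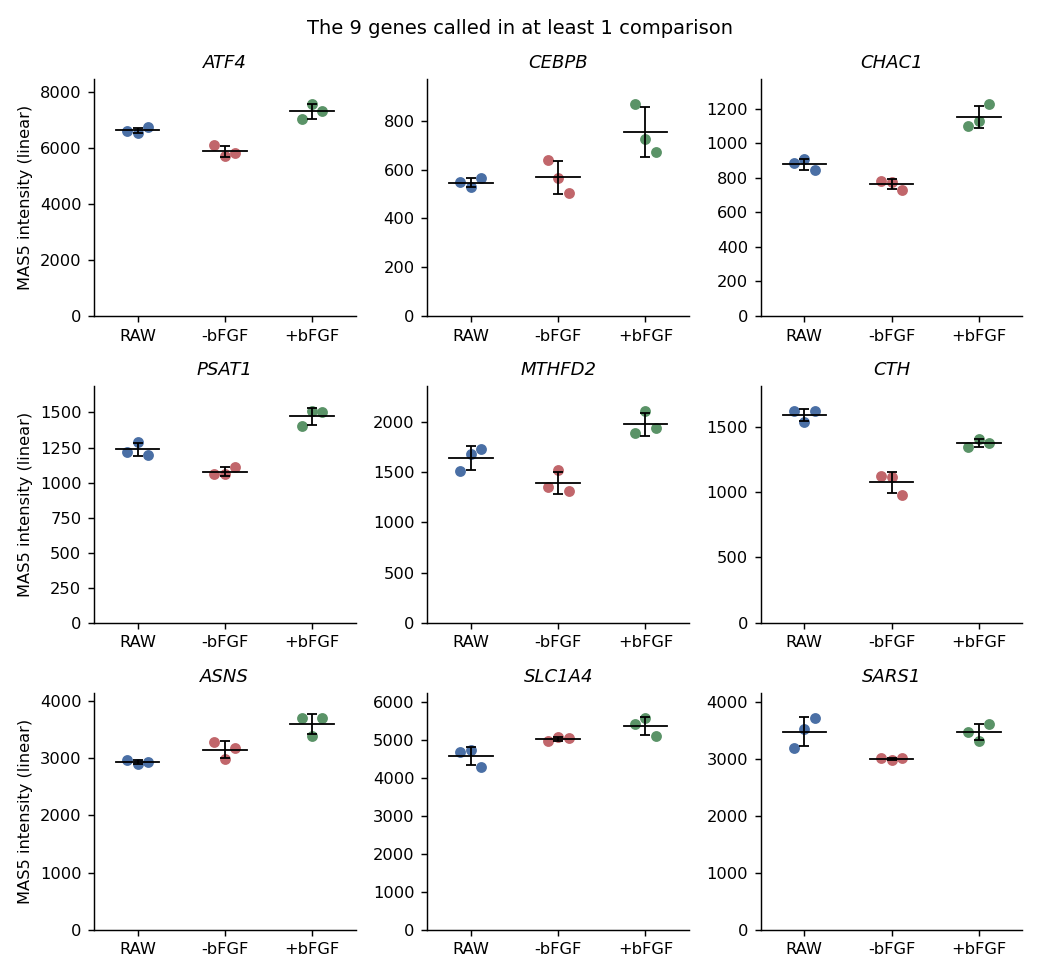
MAS5 intensity (linear axis from 0) of the 9 genes called in at least 1 comparison, with 1 point per array, a horizontal line at the group mean and bars of 1 SD (n = 3) for RAW, -bFGF and +bFGF. CTH shows the deepest relative -bFGF dip, from a mean of 1590 to 1073, and in ATF4, CHAC1, PSAT1 and MTHFD2 all 3 +bFGF arrays lie above the RAW arrays.

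Among the transcription factors, ATF4, the activator at the centre of the response, fell on withdrawal and rose on replacement. Its intensity was 6599.7, 6561 and 6744 in the RAW arrays, 6104, 5719 and 5828 in the -bFGF arrays, and 7059.9, 7570.4 and 7314 in the +bFGF arrays. The 3 groups did not overlap anywhere, with -bFGF lowest and +bFGF highest. The fall on withdrawal was small, -0.17 (SE 0.0501, adjusted p = 0.0414), and the rise on replacement was 0.31 (SE 0.0501, adjusted p = 0.00151), a factor of 1.24. The net change of 0.14 did not pass (adjusted p = 0.159). The rise passed in all 9 fits that leave out 1 array, but the fall passed in only 2 of these 9 fits. The fall was lost (adjusted p between 0.0505 and 0.164) without any 1 of RAW replicates 1, 2 and 3, -bFGF replicates 2 and 3, and +bFGF replicates 2 and 3. A second tested ATF4 probe set, with a mean intensity of 4137, gave changes of -0.14 (adjusted p = 0.294) and 0.28 (adjusted p = 0.0522), and another had a mean intensity of 7.3.

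CEBPB encodes C/EBP beta, a basic leucine zipper protein that can pair with ATF4. Its intensity was 548, 527 and 565 in RAW, 638, 567 and 502 in -bFGF, and 868, 726 and 672 in +bFGF. The -bFGF arrays spread around the RAW arrays, and all +bFGF arrays were above both. The change was 0.05 on withdrawal (SE 0.110, adjusted p = 0.818), 0.41 on replacement (adjusted p = 0.0430) and 0.46 in the net change (adjusted p = 0.0426). Both calls were close to the threshold. Replacement passed only without -bFGF replicate 1 or +bFGF replicate 3 and was lost (adjusted p 0.0528 to 0.170) without any other array, and the net change passed only without -bFGF replicate 1, -bFGF replicate 3 or +bFGF replicate 3 (adjusted p 0.0703 to 0.140 without another array).

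CEBPG, which encodes a widely expressed C/EBP partner of ATF4, did not pass the test in any comparison. Its changes were -0.02, 0.13 and 0.11 (SE 0.0628, adjusted p = 0.879, 0.273 and 0.396) and its groups overlapped. ATF3, a repressor and target of ATF4, read 42.6, 72.3 and 80.9 in RAW, 64.1, 63.3 and 56.6 in -bFGF, and 101, 91.7 and 92.5 in +bFGF. The +bFGF arrays were the highest, but the gene lay below the filter and carries no test. For scale, the 95th percentile of 683 probe sets designed on single sequence records without a gene symbol lay between 29.4 and 39.4 on the 9 arrays.

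Of the stress effectors only CHAC1 was tested. CHAC1 encodes an enzyme that breaks down glutathione and is a known target of ATF4 in mammals. It read 887, 909 and 846 in RAW, 785, 779 and 731 in -bFGF, and 1103, 1130.1 and 1227 in +bFGF. Each group was separate from the others in the order -bFGF, RAW, +bFGF. The rise on replacement was 0.59 (SE 0.0729, adjusted p = 0.000172), a factor of 1.51 and the largest of the 30 genes. It passed with every array left out in turn, and CHAC1 was the only 1 of the 30 to pass a test on replacement against a fold of 1.2 (adjusted p = 0.0234). The net rise was 0.39 (adjusted p = 0.0136), which was lost without +bFGF replicate 3 (adjusted p = 0.0597). The change on withdrawal was -0.20 (adjusted p = 0.0947) and did not pass although the arrays did not overlap.

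DDIT4, an inhibitor of mTORC1 induced by stress, was near the background and scattered within groups. It read 49.3, 52.1 and 67.7 in RAW, 59.6, 89.4 and 50.1 in -bFGF, and 21.6, 13.7 and 88.4 in +bFGF, so that 1 +bFGF array held a higher value than every RAW array and the others lower ones. No change is given for it.

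The serine and folate enzymes held 2 of the 6 genes that rose on replacement, and neither fell past the threshold on withdrawal. Serine is made from a glycolytic intermediate by PHGDH, PSAT1 and PSPH in that order. SHMT enzymes then split it into glycine and a carbon unit on folate, which MTHFD2 and MTHFD1L process in mitochondria. All 6 tested genes of this group were higher on replacement (median 0.15), 3 were lower and 3 higher on withdrawal (median -0.07), and all 6 were higher in the net change (median 0.09).

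PSAT1, the aminotransferase of the pathway, read 1221, 1291 and 1199 in RAW, 1059, 1061 and 1112 in -bFGF, and 1403, 1509 and 1503 in +bFGF. The groups were separate in all 3 comparisons, -bFGF lowest and +bFGF highest. It rose by 0.45 on replacement (SE 0.0651, adjusted p = 0.000684), a factor of 1.37, and this passed with each of the 9 arrays left out. The change on withdrawal was -0.20 (adjusted p = 0.0690) and the net change 0.25 (adjusted p = 0.0590), neither past the threshold.

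MTHFD2, the mitochondrial methylenetetrahydrofolate dehydrogenase and cyclohydrolase, read 1508, 1687 and 1727 in RAW, 1350.0, 1520.3 and 1313 in -bFGF, and 1886, 2107 and 1937 in +bFGF. In -bFGF, replicate 2 lay within the range of RAW, while all +bFGF arrays lay above both groups. The gene rose by 0.50 on replacement (SE 0.0777, adjusted p = 0.00115), a factor of 1.42, and the rise passed with each array left out. On withdrawal the change was -0.23 (adjusted p = 0.0710) and in the net change 0.27 (adjusted p = 0.0845). A second MTHFD2 probe set, with a mean intensity of 919.8, gave a fall of -0.36 (adjusted p = 0.0414) and a rise of 0.50 (adjusted p = 0.00910), and another, with a mean of 123, passed in neither comparison.

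PHGDH, which catalyses the first step of serine synthesis, passed in no comparison. It read 305, 354 and 389 in RAW, 348, 257 and 475 in -bFGF, and 400.1, 343 and 319.7 in +bFGF, with wide scatter inside each group. Its replacement change was 0.02 (SE 0.184, 95% interval -0.38 to 0.41), an interval wide enough to overlap that of PSAT1 (0.31 to 0.59). PSPH, which releases serine in the last step, changed by -0.14, 0.21 and 0.07 (SE 0.0787, adjusted p = 0.286, 0.145 and 0.706). SHMT1, the cytosolic SHMT, had the widest error of the 30 genes (SE 0.223) and changes of 0.02, 0.10 and 0.12. MTHFD1L, the mitochondrial formate-producing synthetase, changed by 0.02, 0.01 and 0.03 (SE 0.111). PSPH, SHMT1 and MTHFD1L did not pass in any comparison either, and in each, as in PHGDH, the groups overlapped.

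Among the other enzymes of amino acid metabolism, CTH had the largest change of all 30 genes on withdrawal, where ASNS took another course. CTH, cystathionine gamma-lyase, makes cysteine from cystathionine in the last step of transsulfuration. Its intensity was 1617, 1538 and 1616 in RAW, 1122, 1117 and 979.8 in -bFGF, and 1342, 1401 and 1373 in +bFGF. All 3 groups were separate, with +bFGF between -bFGF and RAW, unlike the other genes called on replacement. It fell by 0.57 on withdrawal (SE 0.0694, adjusted p = 0.000132), from a mean of 1590 ± 45.6 to 1073 ± 80.6 (SD, n = 3), and rose by 0.36 on replacement (adjusted p = 0.00611) to 1372 ± 29.5. The net change of -0.21 did not pass (adjusted p = 0.127). Both calls passed with each array left out, and the fall also passed the test against a fold of 1.2 (adjusted p = 0.0235). Both were lost when CTH was taken as the mean of its probe sets (adjusted p = 0.386 and 0.239), where the other probe set had a mean intensity of 15.2.

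CBS, cystathionine beta-synthase, which catalyses the step before CTH, gave -0.14, 0.11 and -0.03 (SE 0.0791, adjusted p = 0.306, 0.485 and 0.891). Its -bFGF arrays (725, 694 and 723) were all below its RAW arrays (792, 738 and 829) and below its +bFGF arrays (753, 826 and 733), but the differences did not pass.

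ASNS, asparagine synthetase, a classic target of ATF4, was not lower on withdrawal. It read 2974, 2895 and 2938 in RAW, 3283, 2989.9 and 3173 in -bFGF, and 3696, 3388 and 3693 in +bFGF. The groups did not overlap in any comparison and each was higher than the one before in time. The steps were 0.10 (SE 0.0580, adjusted p = 0.310) and 0.19 (adjusted p = 0.0698), and only the net rise of 0.29, a factor of 1.22, passed (adjusted p = 0.0175). That call was lost without RAW replicate 1, RAW replicate 2 or +bFGF replicate 3 (adjusted p 0.0598 to 0.0775). ALDH18A1, which makes the proline precursor from glutamate, changed by -0.06, 0.02 and -0.04 (SE 0.0513) and did not pass.

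**Figure D2:**
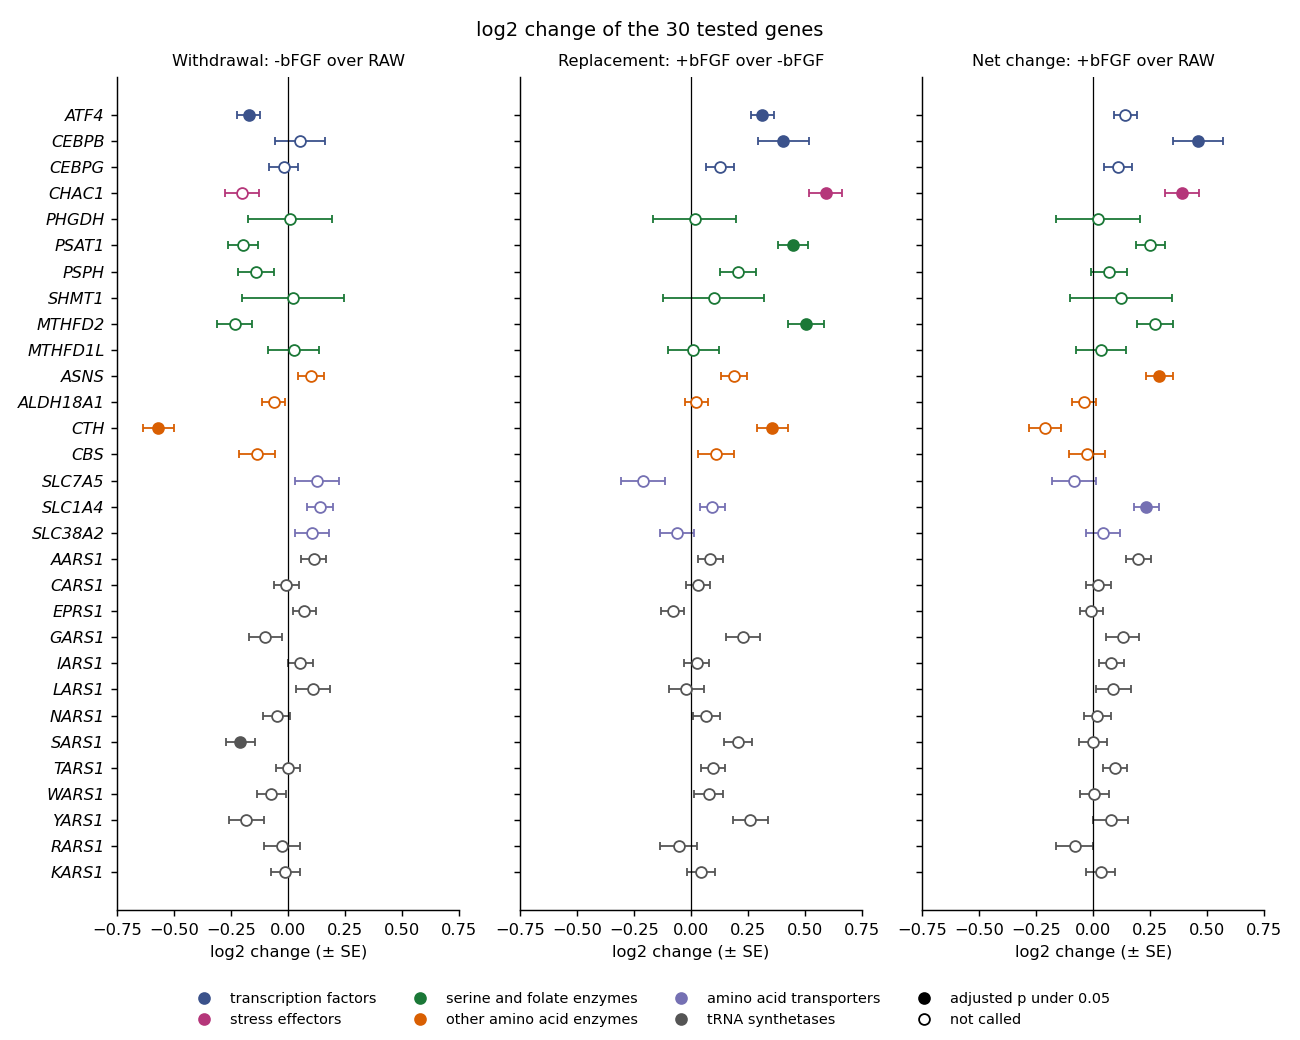
log2 change with its SE (x axis) of each of the 30 tested genes in withdrawal, replacement and the net change, 1 panel per comparison, coloured by group, with filled points for an adjusted p below 0.05. The values run from -0.57 (CTH) to 0.14 on withdrawal and from -0.21 to 0.59 (CHAC1) on replacement, and SARS1 on withdrawal is the only filled point among the synthetases.

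All 3 tested transporters were higher without bFGF (median 0.13) and 2 of 3 were lower on replacement (median -0.06), as measured by their brightest probe sets, with none past the limma threshold in these comparisons (an unadjusted p below 0.05 for 1 gene in each, and none by the methods' criteria). Of all 19220 tested probe sets, 4826 on withdrawal and 3944 on replacement had such an unadjusted p. The 11 other amino acid transporters tested, described below, had medians of the opposite sign (-0.12 on withdrawal and 0.15 on replacement). SLC1A4, the neutral amino acid transporter ASCT1, read 4688, 4734 and 4303 in RAW, 4979, 5081 and 5045 in -bFGF, and 5428, 5577 and 5122 in +bFGF. The groups stepped upward without overlap, and the net rise of 0.23 passed (SE 0.0555, adjusted p = 0.0412) while the steps of 0.14 (adjusted p = 0.132) and 0.09 (adjusted p = 0.374) did not. This call did not survive the loss of any array: without each of RAW replicates 1 to 3, -bFGF replicates 1 to 3 and +bFGF replicates 1 to 3 the adjusted p lay between 0.0502 and 0.149. A second tested SLC1A4 probe set, with a mean of 1377, changed by 0.04, 0.13 and 0.17 and was not called in the net change (adjusted p = 0.332).

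SLC7A5, the light chain of the leucine transporter LAT1, read 453, 462 and 398 in RAW, 478, 471 and 481 in -bFGF, and 387, 439 and 411 in +bFGF. All -bFGF arrays were above the others, but the changes of 0.13 (adjusted p = 0.448) and -0.21 (SE 0.0954, adjusted p = 0.231) did not pass. A second tested SLC7A5 probe set, with a mean of 239, was lower in both steps, at -0.19 and -0.23 (adjusted p = 0.451 and 0.395). SLC38A2, the glutamine and alanine transporter SNAT2, changed by 0.10, -0.06 and 0.04 (SE 0.0740) with overlapping groups. SLC7A11, the cystine transporter xCT, was close to the background, with 49.0, 73.5 and 50.8 in RAW, 75.5, 65.3 and 81.0 in -bFGF, and 43.6, 47.6 and 29.0 in +bFGF. Its +bFGF arrays were the lowest, and it was not tested.

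The aminoacyl-tRNA synthetases, which join each amino acid to its tRNA, showed small changes as a group. Of the 13 tested, 1 (SARS1) fell on withdrawal (7.69%, beside 5.33%, or 5.99% by gene), none rose or fell on replacement, and none in the net change by limma. These counts moved with the setting: SARS1 and YARS1 rose on replacement with arrays centred on the 75th percentile, YARS1 with the replicate block, and SARS1 without RAW replicate 1, and AARS1 rose in the net change with the filter at the 75th percentile. The methods' criteria called none of the 13, and an unadjusted p below 0.05 was seen for 2 lower genes on withdrawal, 3 higher genes on replacement and 1 higher gene in the net change. Of all 19220 tested probe sets, 4826, 3944 and 3430 had such a p in these comparisons, in either direction. The median change was -0.01 on withdrawal (range -0.21 to 0.11), 0.07 on replacement (range -0.08 to 0.26) and 0.03 in the net change (range -0.08 to 0.20). For the brightest probe sets of the 13 genes, each SE lay between 0.0504 and 0.0797. Their 95% intervals reached no further than -0.35 and 0.27 on withdrawal, -0.23 and 0.43 on replacement and -0.25 and 0.32 in the net change. Other probe sets of these genes are not held within these limits: a second one of YARS1 rose by 0.51 on replacement (adjusted p = 0.00368). The sign of the withdrawal median turned under quantile normalization, where it was 0.00045. On replacement 10 of the 13 were higher and 3 lower.

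SARS1, the seryl-tRNA synthetase, read 3199.99, 3534 and 3717 in RAW, 3018, 2986 and 3017 in -bFGF, and 3479, 3326 and 3617 in +bFGF. The -bFGF arrays lay closely together and below all other arrays. Its fall of -0.21 (SE 0.0624) was just past the threshold (adjusted p = 0.0477), its replacement change of 0.21 was not (adjusted p = 0.0664), and its net change was -0.00 (adjusted p = 0.990). The fall passed only without RAW replicate 1 or +bFGF replicate 1. It was lost (adjusted p 0.0503 to 0.152) when the array removed was RAW replicate 2 or 3, any -bFGF replicate (1, 2 or 3), or replicate 2 or 3 of +bFGF.

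YARS1, the tyrosyl-tRNA synthetase, had the largest replacement change of the 13. It read 1294, 1296 and 1352 in RAW, 1101, 1132 and 1238 in -bFGF, and 1319.9, 1311 and 1532 in +bFGF, and its -bFGF arrays did not overlap with either of the other groups. The changes of -0.18 (adjusted p = 0.151) and 0.26 (SE 0.0769, adjusted p = 0.0623) did not pass. A second tested YARS1 probe set, with a mean of 1013, rose on replacement by 0.51 (adjusted p = 0.00368) after a withdrawal change of -0.30 (adjusted p = 0.0542). GARS1, the glycyl-tRNA synthetase, read 4494, 3806 and 4492 in RAW, 3983, 4065 and 3853 in -bFGF, and 5046, 4572 and 4352 in +bFGF. The replacement change of 0.23 (SE 0.0736) gave an adjusted p of 0.0859, and RAW replicate 2 lay below all other arrays.

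AARS1, the alanyl-tRNA synthetase, stepped upward: 2810.4, 2714 and 2979.8 in RAW, 3085, 3029 and 3068 in -bFGF, and 3342, 3148 and 3253 in +bFGF. The groups did not overlap in any comparison, and the net change of 0.20 (SE 0.0551) had the lowest net adjusted p of the synthetases, 0.0764. A second tested AARS1 probe set, with a mean of 1523, was not higher on withdrawal. It changed by -0.01, 0.29 and 0.27 (adjusted p = 0.953, 0.127 and 0.182). TARS1, the threonyl-tRNA synthetase, changed by -0.00 on withdrawal (SE 0.0528) and 0.10 on replacement (adjusted p = 0.339), where its +bFGF arrays were all above the -bFGF arrays. EPRS1, which charges both glutamate and proline, was higher by 0.07 in -bFGF and changed by -0.08 on replacement (SE 0.0504, adjusted p = 0.414 for each), with no overlap in either. WARS1, the tryptophanyl-tRNA synthetase, changed by -0.07 and 0.08 (SE 0.0637, adjusted p = 0.505 and 0.543). The remaining 6, CARS1, IARS1, LARS1, NARS1, RARS1 and KARS1, had overlapping groups in all 3 comparisons and changes between -0.08 (RARS1, net) and 0.11 (LARS1, withdrawal). In RARS1 and KARS1, +bFGF replicate 1 was below all other arrays, at 5133 and 9298.

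**Figure D3:**
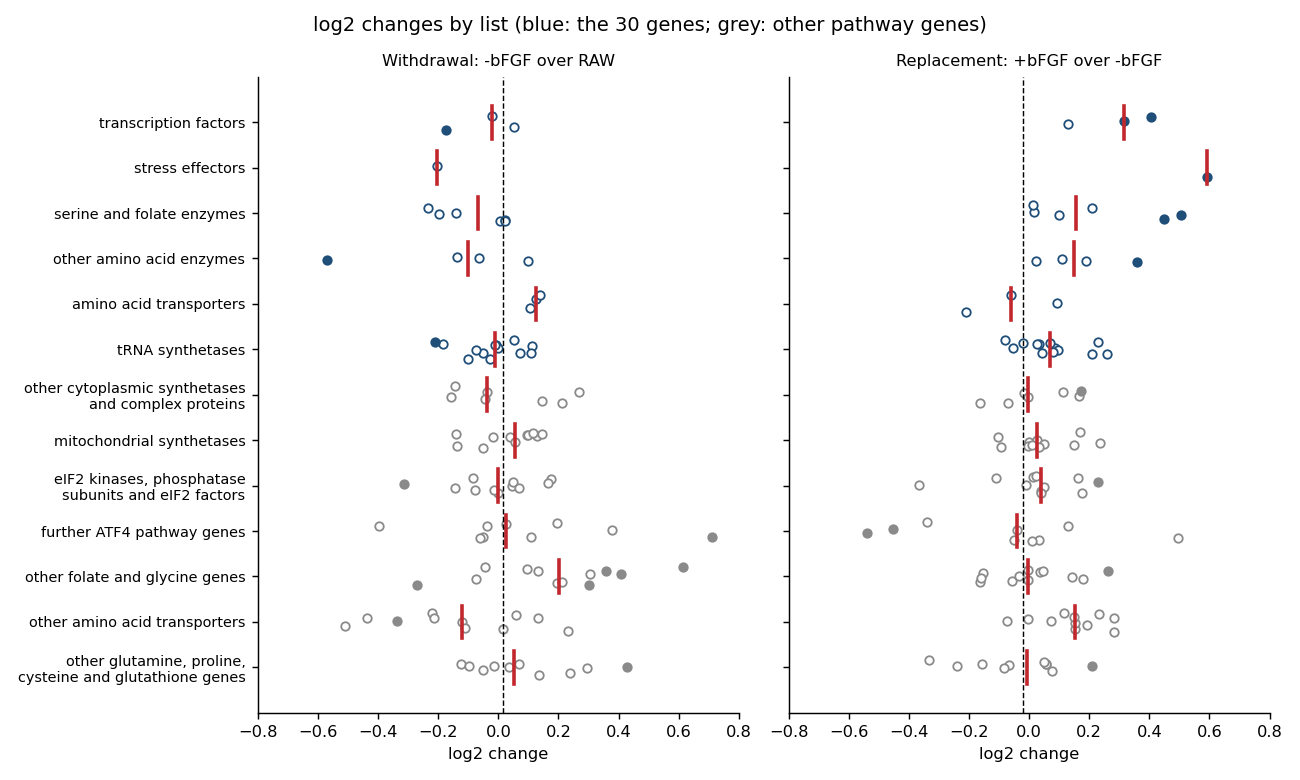
log2 change (x axis) of every tested gene in each of the 6 groups of the 30 genes (blue) and of the 7 lists of other pathway genes (grey) on withdrawal and replacement, with filled points for an adjusted p below 0.05, a red bar at the list median and a dashed line at the median of all tested probe sets. On replacement the transcription factors (median 0.31) lie furthest to the right of the lists with more than 1 tested gene, and the synthetases have a median of 0.07 beside the dashed line at -0.02.

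The wider pathway was read from 101 further genes in 7 lists, of which 81 had a probe set and 71 were tested. On withdrawal 3 of the 71 fell (4.23%) and 6 rose (8.45%), on replacement 2 fell and 4 rose, and in the net change 1 fell and 3 rose. The medians were 0.04, 0.03 and 0.09. The shares on withdrawal stand beside the backgrounds of 5.33% and 5.4% (5.99% and 6.83% by gene). The rises on replacement make 5.63% beside 3.37% (4.02% by gene), and the falls 2.82% beside 3.42% (4.21% by gene). In the net change 1.41% fell, beside 1.74% (1.85% by gene), and 4.23% rose, beside 1.14% (1.62% by gene).

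Of 11 tested genes of the upstream arm, 1 fell on withdrawal (9.09%, beside 5.33%) and 1 rose on replacement (9.09%, beside 3.37%). By gene these backgrounds were 5.99% and 4.02%. EIF2B3, a subunit of the exchange factor that reloads eIF2 with GTP, read 1884, 1918 and 1881 in RAW, 1564, 1756 and 1293 in -bFGF, and 1658, 1476 and 1573 in +bFGF, and fell by 0.31 on withdrawal (SE 0.0932, adjusted p = 0.0478). That fall passed only without -bFGF replicate 2 or +bFGF replicate 1, and otherwise the adjusted p with 1 array left out (RAW replicates 1, 2 and 3, -bFGF replicates 1 and 3, +bFGF replicates 2 and 3) was 0.0552 to 0.165. EIF2S2, the beta subunit of eIF2, read 9638, 9679 and 9632 in RAW, 9437, 9072 and 8909 in -bFGF, and 10418, 10633 and 11056 in +bFGF, and rose by 0.23 on replacement (SE 0.0474, adjusted p = 0.00966), which was lost without -bFGF replicate 2 (adjusted p = 0.0554). The kinase GCN2 (EIF2AK4) changed by 0.05 and 0.01 (adjusted p = 0.670 and 0.935), and the kinase PERK (EIF2AK3) by -0.14 and -0.37 (adjusted p = 0.563 and 0.146). PERK read 244, 248 and 250 in RAW, 214, 197 and 267 in -bFGF, and 166, 182 and 174 in +bFGF. Its net change of -0.51 was the lowest of the 11, without overlap, as in 11.8% of all tested probe sets. None of the 11 passed in the net change.

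Among 7 tested cytoplasmic synthetases and complex proteins outside the 15, 1 passed, on replacement (14.3%, beside 3.37%, or 4.02% by gene). On withdrawal 4 of the 7 were lower and 3 higher, and the 3 higher ones did not overlap with RAW, beside 17.3% of all tested probe sets. The largest of these changes, in HARS1 (0.27, adjusted p = 0.0559) and FARSB (0.21, adjusted p = 0.0608), did not pass. AIMP2, a scaffold of the multisynthetase complex, rose by 0.17 on replacement (SE 0.0482, adjusted p = 0.0489) and kept that call in 1 of the 9 fits with an array left out, that without +bFGF replicate 1 (adjusted p otherwise 0.0571 to 0.152). None of the 11 tested mitochondrial synthetases passed in any comparison by limma, with medians of 0.06, 0.03 and 0.04 and an unadjusted p below 0.05 for 2 higher genes in the net change alone. Such a p was seen for 3430 of all 19220 tested probe sets in the net change.

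Of 12 other folate and glycine genes tested, 4 rose (33.3%) and 1 fell (8.33%) on withdrawal, with a median of 0.20. The backgrounds were 5.4% risen and 5.33% fallen, or 6.83% and 5.99% by gene. ALDH1L2, which oxidises formyl-folate in mitochondria, read 467, 363 and 406 in RAW, 683, 595 and 609 in -bFGF, and 605, 522 and 561 in +bFGF. It rose by 0.62 on withdrawal (SE 0.108, adjusted p = 0.00241), a factor of 1.53, and this passed with every array left out. MTHFS, which returns formyl-folate to the pool, rose by 0.36 (SE 0.0735, adjusted p = 0.00686) and also passed in all 9 fits. MTHFD2L, the paralogue of MTHFD2, rose by 0.41 (SE 0.0900, adjusted p = 0.0112), which was lost without RAW replicate 2 (adjusted p = 0.0516). SLC19A1, the reduced folate carrier, rose by 0.30 (SE 0.0712, adjusted p = 0.0160), which was lost without RAW replicate 1 or -bFGF replicate 2 (adjusted p 0.0564 and 0.0635). Their groups did not overlap on withdrawal.

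In the net change ALDH1L2, MTHFS and SLC19A1 were still above RAW, by 0.46, 0.30 and 0.30 (adjusted p = 0.0400, 0.0434 and 0.0412). These 3 of the 12 genes (25%) stand beside a background of 1.14%, or 1.62% by gene. These net calls passed in 2, 0 and 1 of the 9 fits with 1 array left out, and the adjusted p after a loss lay between 0.0539 and 0.153. For ALDH1L2 the call was kept without RAW replicate 1 or -bFGF replicate 1, and for SLC19A1 without RAW replicate 3. GLDC, the glycine-cleaving decarboxylase, both fell and rose, with 2957, 2829.8 and 2656 in RAW, 2389, 2404 and 2208 in -bFGF, and 2594, 2896 and 2908 in +bFGF. It fell by 0.27 (SE 0.0666, adjusted p = 0.0203) and rose by 0.26 (adjusted p = 0.0312). The fall was lost without RAW replicate 1, RAW replicate 2 or -bFGF replicate 3 (adjusted p 0.0674 to 0.0836), and the rise when any -bFGF replicate (1, 2 or 3) or replicate 2 or 3 of +bFGF was removed (adjusted p 0.0572 to 0.129).

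**Figure D4:**
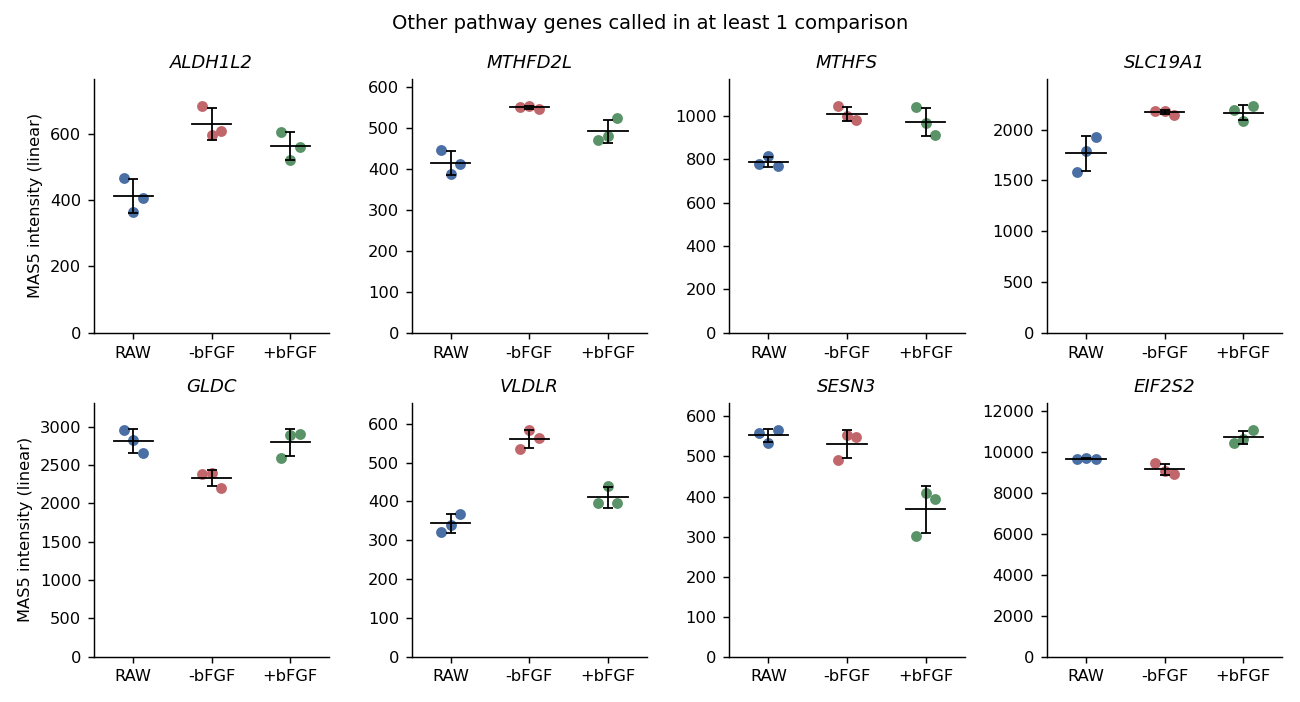
MAS5 intensity (linear axis from 0) of 8 called genes of the wider pathway, with 1 point per array, a line at the group mean and bars of 1 SD (n = 3) for RAW, -bFGF and +bFGF. ALDH1L2, MTHFD2L, MTHFS, SLC19A1 and VLDLR have their highest mean without bFGF, GLDC and EIF2S2 have their lowest there, and SESN3 has its lowest in +bFGF.

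Among 9 tested further genes of the ATF4 pathway, 1 rose on withdrawal (11.1%, beside 5.4%, or 6.83% by gene). On replacement 2 fell (22.2%, beside 3.42%, or 4.21% by gene), and 1 fell in the net change (11.1%, beside 1.74%, or 1.85% by gene). VLDLR, a lipoprotein receptor induced by ATF4 in mammals, went the other way from ATF4. It read 322, 340.3 and 369 in RAW, 536, 584 and 564 in -bFGF, and 395, 441 and 395 in +bFGF, with all groups separate. It rose by 0.71 on withdrawal (SE 0.0962, adjusted p = 0.000341), a factor of 1.64, in every fit with an array left out, and fell by 0.45 on replacement (adjusted p = 0.0109, or 0.0624 without -bFGF replicate 2). SESN3, a sestrin that restrains mTORC1, read 558, 535 and 566 in RAW, 491, 553 and 548 in -bFGF, and 301, 409 and 394 in +bFGF. It fell by 0.54 on replacement (SE 0.116, adjusted p = 0.0116), lost without -bFGF replicate 2 or 3 (adjusted p 0.0518 and 0.0588), and by 0.60 in the net change (adjusted p = 0.0149), lost without RAW replicate 1 (adjusted p = 0.0615).

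Of 11 other amino acid transporters tested, 1 fell on withdrawal (9.09%, beside 5.33%, or 5.99% by gene). By sign, 7 were lower and 4 higher on withdrawal (median -0.12), and 9 were higher and 2 lower on replacement (median 0.15). Of all tested probe sets 47.1% were lower on withdrawal and 45.3% higher on replacement. SLC43A2, a carrier of large neutral amino acids, fell by 0.34 on withdrawal (SE 0.0946, adjusted p = 0.0368) from 411, 435 and 429 to 315, 345 and 349.7, with 375, 360.4 and 384 in +bFGF. The fall was lost without any 1 of RAW replicates 1, 2 and 3 and -bFGF replicates 1, 2 and 3 (adjusted p 0.0661 to 0.125). Of 10 other glutamine, proline, cysteine and glutathione genes, 1 rose on withdrawal (10%, beside 5.4%, or 6.83% by gene) and 1 on replacement (10%, beside 3.37%, or 4.02% by gene). GSR, which reduces oxidised glutathione, rose by 0.43 on withdrawal (SE 0.0961, adjusted p = 0.0122) and passed in all 9 fits. GOT2, the mitochondrial aspartate aminotransferase, rose by 0.21 on replacement (SE 0.0483, adjusted p = 0.0186), a call lost without any 1 of -bFGF replicates 1 and 2 and +bFGF replicates 2 and 3 (adjusted p 0.0529 to 0.105).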

How the data were processed

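RNA of cultured PGCs was hybridised by the authors to Affymetrix Chicken Genome arrays, 3 per group. The deposited values are linear intensities per probe set made by the authors with MAS5, and each array's mean without the top and bottom 2% of values was 500.1. They were used without further normalization and converted to log2 without an offset. Of 38535 deposited probe sets, 96 controls were left out. Symbols came from the platform annotation (27178 probe sets with 1 symbol, 177 with several, 11180 unnamed), and 11 genes were matched by an older symbol. With limma 3.58.1 in R 4.3.3, all 9 arrays entered 1 linear model of group means, whose moderated variances followed an intensity trend, on the 19220 probe sets with a mean log2 value at or above the median. Two-sided adjusted p-values below 0.05 were called. The script was tested on simulated data for withdrawal, with 50 changed probe sets at each size. It called 5 of 50 at a log2 change of 0.3, 29 at 0.5, 41 at 1 and 50 at 2, and 0 in the wrong direction. Small changes were thus mostly missed there. Fewer probe sets changed there than were called in the data, so these shares do not carry over directly. The genes and lists were chosen with earlier results of these data known. Every gene of the set is accounted for, and called genes of other pathway lists are named, up to 4 per list and comparison. A pathway gene is not reported here. Alternatives changed the filter (none, 75th percentile), scaling (quantile, 75th percentile centring), offset (50), variance trend, groups in the fit, replicate block, fold tested (1.2), threshold (0.1) and probe sets per gene (mean), applied the methods' criteria (lower 90% bound of the fold over 1.2, difference of means over 50, with replicate-based errors), or left out each array. Promoter sequences were not analysed here. The number of arrays limits the precision.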

Additional observations from a re-analysis of the deposited data

How the results depend on the processing

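Over the called changes of the listed genes and of the wider pathway genes together, 453 refits kept the call and 216 lost it. No direction turned, but many of these refits could not turn one. The filters, variance trend, groups in the fit, replicate block, fold tested and looser threshold leave the difference of group means unchanged. Leaving out an array of the group not compared does so too. The looser threshold also cannot lose a call, so the tally of kept calls is partly fixed in advance. The 3 genes that fell on withdrawal became 1 without the filter, without the variance trend, with replicate number as a block, against a fold of 1.2 and by the methods' criteria, 0 with the mean of a gene's probe sets, 2 with only the groups compared, 4 with the 75th percentile filter or quantile normalization (PSAT1 added) and 6 at an adjusted p below 0.1. With 1 array left out the count was 1 to 3. The 6 genes that rose on replacement became 1 against a fold of 1.2, 3 with the mean of probe sets, 3 by the methods' criteria, 5 without the filter, without the trend or with only the groups compared, 9 with 75th percentile centring (ASNS, SARS1 and YARS1 added) and 10 at an adjusted p below 0.1, and 5 to 6 with 1 array left out. The 4 net rises became 2 without the filter, 1 without the trend, 2 with only the groups compared, 0 against a fold of 1.2, 2 with the mean of probe sets, 2 by the methods' criteria, 3 with quantile normalization, 5 with 75th percentile centring (PSAT1 added), 6 with the 75th percentile filter (PSAT1 and AARS1 added) and 7 at an adjusted p below 0.1, and 1 to 3 with 1 array left out. A looser threshold, a stricter test or fewer arrays change a count by their own construction, and for the others the cause was not tested. CHAC1, PSAT1 and MTHFD2 kept their rise on replacement in every alternative except that PSAT1 and MTHFD2 did not pass the fold of 1.2. The replicate block gave 7 rises on replacement (YARS1 added) and 3 in the net change. Same-numbered arrays did not deviate together (correlations of -0.213 to 0.0605 over 9 pairs, against -0.146 to 0.167 over 18 other pairs), so the numbers were not taken as pairs. The 95% intervals of single genes limit what 3 arrays a group could show.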
